A study of Rattus norvegicus with 8 samples.

Results

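The genes of oxidative phosphorylation were examined in RNA from the medial thalamus of the rat. The animals were male Sprague-Dawley rats that stayed conscious, 4 with tracheal occlusions and 4 surgical controls. Sessions were held daily for 10 days. In each session the occlusion animals had their airway blocked for 3 to 10 breaths at a time, with about 30 s of recovery after each block, while the control animals went through sessions with no block. Brains were taken no later than 10 min after the final session, and 1 µg of total RNA from each animal was labelled with Cy3 and hybridised to its own whole-rat oligonucleotide array. The labels give no age. The members were taken by name, as every gene symbol in the scanner files that starts with Ndufa, Ndufb, Ndufc, Ndufs, Ndufv, Uqcr, Atp5 or Cox with a number from 4 to 8, together with Sdha to Sdhd, Cyc1 and Cycs. This gave 73 of the 35561 gene names in those files, on 85 of the 41012 probes. With the brightest probe standing for each gene, 71 could be compared, which required a probe to be well above background on 4 or more arrays of the 8. In all, 27152 probes met this.

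Oxidative phosphorylation is the process by which mitochondria turn the energy of food into ATP. Complex I takes electrons from NADH and complex II from succinate, complex III passes them to the small carrier cytochrome c, and complex IV gives them to oxygen. The proton gradient built on the way drives complex V, the ATP synthase. Neurons draw most of their ATP from this pathway, and most of the subunits are encoded by nuclear genes, which are the ones read here. None of the subunits encoded by mitochondrial DNA was matched to a probe by name. As 20918 of the 41012 probes were matched to no RefSeq symbol, this does not show that the array lacks them.

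The 71 compared genes were 31 subunits of complex I, 4 of complex II, 6 of complex III, 12 of complex IV and 13 of complex V, cytochrome c itself (Cycs), and 4 genes that share a prefix but are no subunits. These 4 were the complex I assembly factor Ndufaf1, the supercomplex factor Cox7a2l, Cox4nb (now Emc8), a neighbour of Cox4i1 that codes for a part of a membrane-protein insertion complex, and Atp5s (now Dmac2l). Of the 2 genes that were not compared, Cox6c1 is a pseudogene, and the probe named Cox6b carries the description of another transcript. Each of these probes was well above background on 1 array. Many of the probes reached the scanner's ceiling. Saturation touched 33 of the 71 genes, 23 of them on all 8 arrays, which left 38 genes that were never saturated. The share was highest in complex V, with 10 of 13 genes saturated, against 13 of 31 in complex I. A saturated reading is only a lower bound, so the 2 kinds of member are described apart. In RefSeq, 33 of the 71 genes have at least 1 listed pseudogene, and cross-hybridisation was not tested.

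Between 65.0% and 71.6% of the 43379 non-control spots on each array were well above background, and 1.05% to 1.55% were saturated. Values below are log2 of the processed intensity minus the log2 of the same array's 75th percentile, so that a value of 0 is a probe as bright as that percentile. A difference is always the occlusion mean minus the control mean on that scale. Levels of different probes are not comparable with each other. The arrays lay on 2 slides that were scanned separately, each with 2 occlusion and 2 control arrays. Of the markers of relay neurons 9 passed the filter on dim probes. Among them was Slc17a6, the vesicular glutamate transporter of relay cells, well above background on all 8 arrays and saturated on 6. As 27152 of the 41012 probes passed that filter, passing it does not establish the origin of the tissue. The precision is set by 4 arrays in each group. Each array is read here as 1 animal, since the design text names 4 animals per treatment.

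No subunit gene differed between occlusion and control arrays by the fit's threshold. In limma, 0 of the 71 members reached an adjusted p of 0.05, and neither did any of the 27152 probes (0%), the smallest adjusted p being 0.403. Without adjustment 3010 probes had a p under 0.05, of which 1759 were higher (6.48%) and 1251 lower (4.61%) on occlusion arrays. Among the 71 members, 2 had an unadjusted p under 0.05 in limma, Atp5d and the saturated Cox7a2. Of the 38 never-saturated members 27 were higher on occlusion arrays and 11 lower, with a median difference of 0.054. Over all 26518 never-saturated probes 52.7% were higher, with a median of 0.016, and among the brightest 10% of them 58.7% were higher, with a median of 0.036. In RNA from a piece of tissue, fewer cells of a type and less RNA per cell cannot be told apart.

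That count depended strongly on 1 control array, though not on it alone. The median over the never-saturated members, each centred on its mean over the 8 arrays, was 0.10, 0.071, 0.072 and -0.077 on occlusion arrays 1 to 4. On the control arrays it was 0.022, 0.062, -0.26 and 0.032 in the same order. Control 3 stood below the other 7, and the remaining control arrays lay within the range of the occlusion arrays. With control 3 left out, 17 of the 38 members were higher and the median difference became -0.019. On slide 1 alone, which does not hold control 3, 27 of 37 members were higher, with a median difference of 0.036. Slide 2 alone, which holds it, had 26 of 38 higher and a median of 0.065. The 52.7% of all never-saturated probes that were higher is a share with all 8 arrays, and none is given for these settings. Control 3 was the lowest of the 8 arrays for 20 of the 32 never-saturated members with a value on every array (62.5%). The same was true of 21.4% of all never-saturated probes and 32.7% of the brightest 10%.

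**Figure D1:**
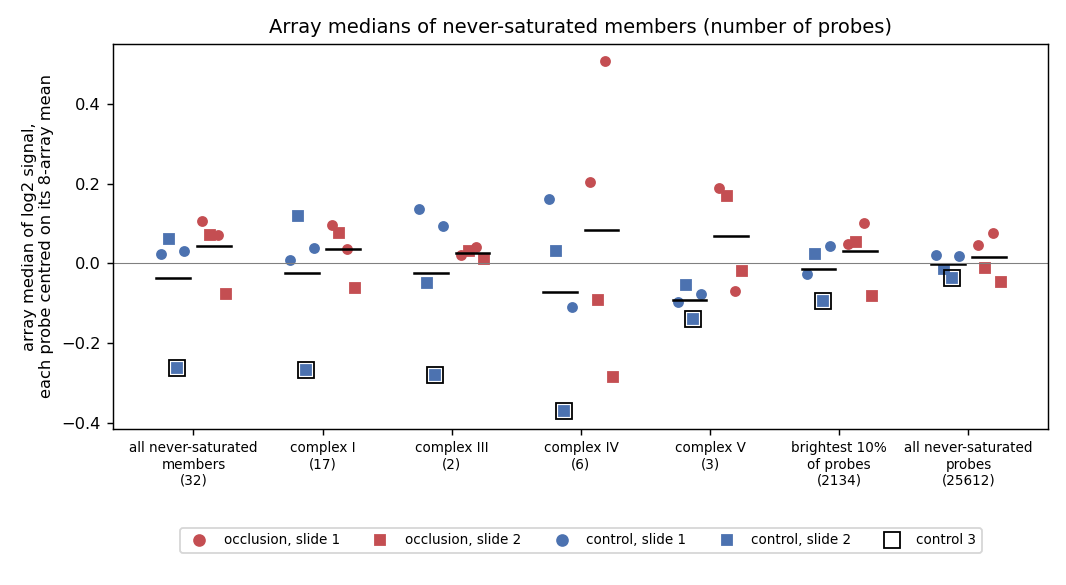
Array medians of never-saturated members, by complex, beside all never-saturated probes and their brightest 10%. Each point is 1 array, the y axis is the median log2 signal after each probe was centred on its mean over the 8 arrays, short lines are the group means, and control 3 is boxed. Control 3 is the lowest array for all members (-0.26) and for complexes I, III, IV and V, and also for the brightest 10% of probes (-0.094), while over all never-saturated probes it reads -0.038.

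The same array stood at one end of several of the lists of cell-type markers. Over the 6 never-saturated markers of relay neurons, the mean level was between -0.73 and -0.057 on occlusion arrays and between -2.0 and -0.57 on control arrays, with control 3 lowest. All 6 were higher on occlusion arrays, with a median difference of 0.85. The 6 markers of inhibitory neurons were all lower, with a median difference of -1.61, and their mean level ran from -0.29 to 1.5 on occlusion and from 1.35 to 2.89 on control arrays, with control 3 highest. Of 7 markers of neurons in general 5 were higher, and the mean of the 5 with a value on every array ran from 2.10 to 2.28 on occlusion and from 1.64 to 2.04 on control arrays, again with control 3 lowest. The 7 never-saturated oligodendrocyte markers were all lower (median -0.55), and the mean level of the 6 with a value on every array ran from 1.59 to 2.35 and from 2.08 to 2.98, highest on control 3. Of the astrocyte markers 3 of 7 were higher, of the microglial markers 3 of 8, of the endothelial markers 5 of 6 and of the choroid plexus markers 2 of 6, with control 3 the highest array for the microglial list (0.48). Markers of the habenula, which borders the medial thalamus, had the widest range. Their mean level was -2.39, -1.69, -4.70 and -2.04 on occlusion arrays 1 to 4 and -1.48, -0.99, -6.30 and -3.91 on control arrays 1 to 4, lowest on control 3. Of these 5 markers 4 were higher on occlusion arrays with all arrays and 0 without control 3, the median difference going from 0.52 to -0.54. Other lists kept their direction without it. Relay markers were higher in 6 of 6 cases (median 0.73) and general neuronal markers in 4 of 7 (0.046). Inhibitory markers were lower in 6 of 6 (-1.35) and oligodendrocyte markers in 7 of 7 (-0.40). None of these markers passed an adjusted p of 0.05 in limma, and each compared marker of relay and inhibitory neurons was well above background on all 8 arrays. The part of these shifts in the values of the subunit genes was not tested.

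**Figure D2:**
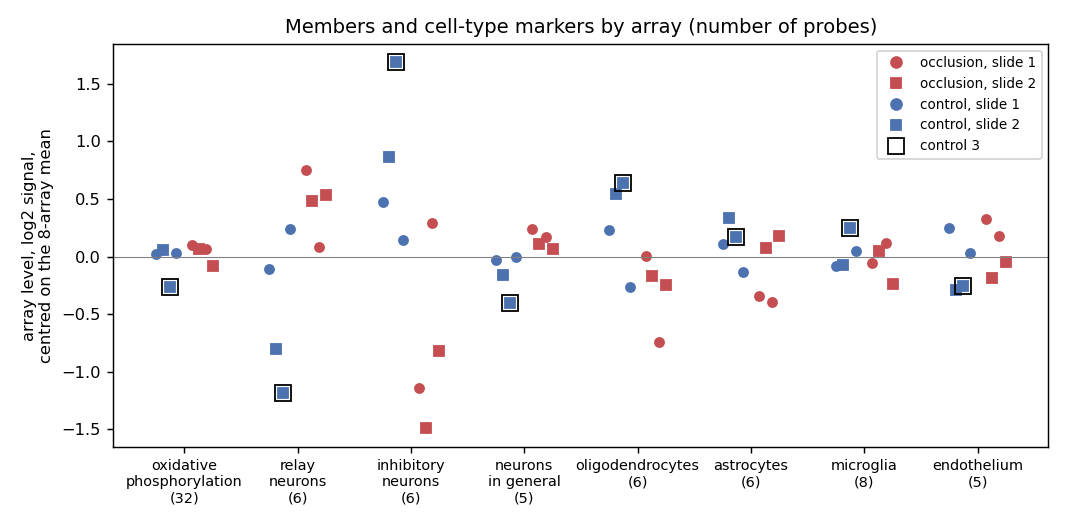
Array levels of the never-saturated oxidative phosphorylation members (median of centred values) and of 7 cell-type marker lists (mean over the list), each centred on its mean over the 8 arrays. The y axis is log2 signal, each point is 1 array and control 3 is boxed. Control 3 is the lowest array for the members, the relay markers and the general neuronal markers, and the highest for the inhibitory, oligodendrocyte and microglial markers. The habenular markers, given in the text, and those of choroid plexus are not plotted.

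Although the direction was not settled, most of these genes were measured closely. The spread between arrays of a group, as a pooled SD, had a median of 0.16 over the 38 never-saturated members, against 0.25 over all never-saturated probes and 0.18 over the brightest 10%. For 31 of the 38 members (81.6%) the 95% interval of the difference, taken gene by gene, lay within a 1.5-fold change in either direction, which held for 48.2% of all never-saturated probes. For 35 of 38 (92.1%) it lay within 2-fold, against 79.2% of the probes. The median SE of the difference was 0.135 for the members, 0.138 for the brightest 10% and 0.172 for all never-saturated probes. The members were thus measured about as closely as other bright probes. The 3 genes with wider intervals were Cox6a2, Cox8h and Atp5s.

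**Figure D3:**
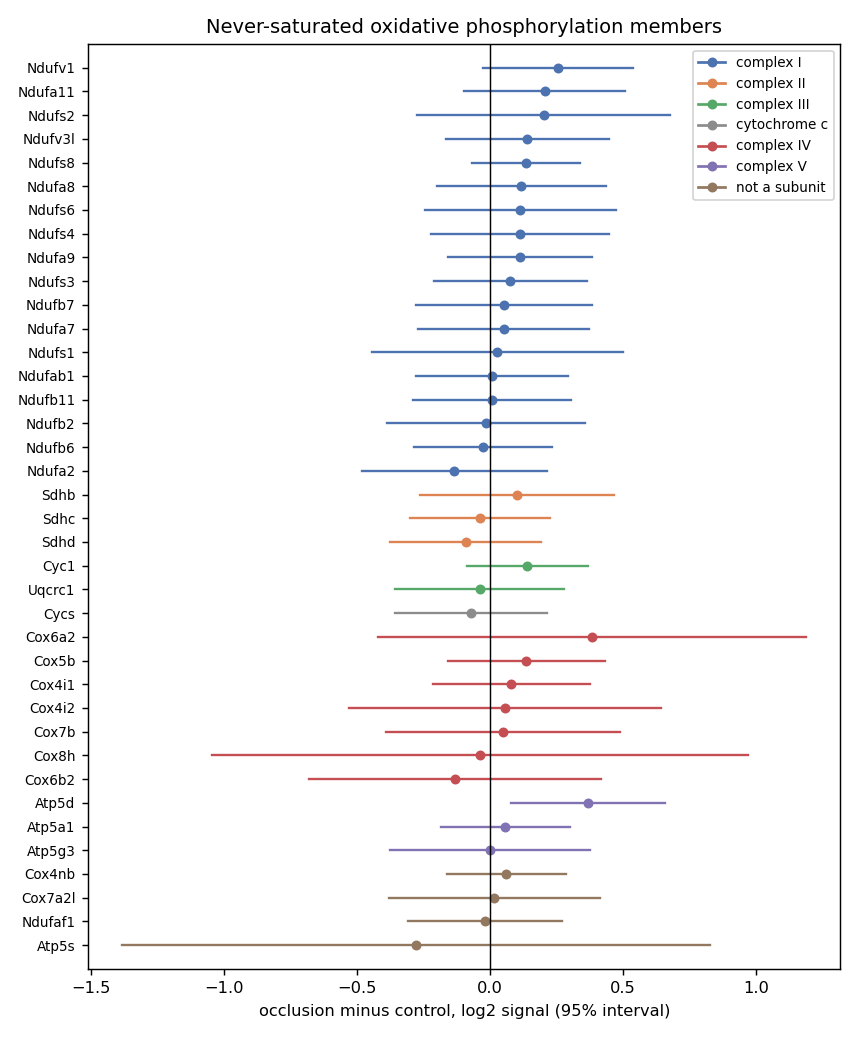
Difference between occlusion and control arrays for the 38 never-saturated members, grouped by complex. The x axis is the difference in log2 signal, points are limma estimates and bars their 95% intervals, not adjusted for the number of genes. The interval of Atp5d alone lies wholly on one side of 0, and 35 of 38 intervals lie between -1 and 1.

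Complex I, the NADH dehydrogenase, supplied 18 of the never-saturated members. Of these 15 were higher on occlusion arrays, with a median difference of 0.094 that became -0.019 without control 3. The core subunits, which carry the redox centres and pass electrons to ubiquinone, were higher in 5 of 5 cases with a median of 0.14. The accessory subunits, which surround the core, were higher in 10 of 13 cases with a median of 0.052. Both counts include control 3, and 52.7% of all never-saturated probes were higher. The 2 slides gave the same sign for 4 of the 5 core and 8 of the 13 accessory genes. The core gene that turned was Ndufs1, at -0.27 on slide 1 and 0.32 on slide 2. None of the 18 had an adjusted p below 0.478 in limma.

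Ndufv1, the core subunit that binds NADH, read 2.80, 2.58, 2.66 and 2.54 on occlusion arrays 1 to 4 and 2.49, 2.47, 2.12 and 2.47 on the control arrays. The groups did not overlap, and control 3 lay 0.36 below the next control array. The difference was 0.26 (SE 0.12, adjusted p 0.478 in limma), 0.24 within slide 1 and 0.27 within slide 2, and 0.16 without control 3. Its probe lies at chr1:206743451-206743474 on the minus strand of rat assembly rn3.

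Ndufs8, an iron-sulphur protein near the ubiquinone site, read 1.99, 2.01, 2.04 and 1.97 on occlusion arrays and 1.83, 1.96, 1.83 and 1.84 on control arrays. All occlusion arrays were above all control arrays, by 0.0056 between the nearest pair, and this gene had the smallest pooled SD of all never-saturated members (0.050). The difference was 0.14 (SE 0.089, adjusted p 0.587 in limma), larger on slide 1 (0.18) than on slide 2 (0.090). A second probe that overlaps the first gave 0.067 (SE 0.091), and on it the groups overlapped. The brighter probe lies at chr1:206589326-206589824 of rn3, on the minus strand. The other 3 core genes had differences between 0.028 and 0.20 and groups that overlapped.

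Among the accessory subunits Ndufa11, a membrane-arm subunit, stood highest. It read 1.73, 1.52, 1.70 and 1.46 on occlusion arrays and 1.51, 1.47, 1.1 and 1.51 on control arrays, a difference of 0.21 (SE 0.13) that became 0.11 without control 3. The lowest was Ndufa2, a subunit of the matrix arm, at 2.59, 2.71, 2.63 and 2.26 on occlusion and 2.84, 2.80, 2.35 and 2.72 on control arrays. Its difference was -0.13 (SE 0.15), and a second, overlapping probe gave -0.079 (SE 0.15). Ndufb6 of the membrane arm differed by -0.025 (SE 0.11), with arrays between 4.32 and 4.51 on the occlusion side and between 4.22 and 4.56 on the control side. The other 10 accessory subunits had differences between -0.016 and 0.14. Groups overlapped for every accessory subunit that was never saturated.

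Complex II, succinate dehydrogenase, links the electron transport chain to the tricarboxylic acid cycle. Of its 3 never-saturated genes 1 was higher on occlusion arrays, and the median difference was -0.039. The iron-sulphur subunit Sdhb differed by 0.10 (SE 0.15), with 3 arrays a group because outlier spots were left out. The membrane anchors Sdhc and Sdhd differed by -0.039 (SE 0.11) and -0.092 (SE 0.12), the latter with 3 control arrays, control 3 being the one without a value. Sdhc read 4.25, 4.28, 4.04 and 3.95 on occlusion arrays and 4.16, 4.30, 4.14 and 4.08 on control arrays, so both groups covered nearly the same range. Sdha, the flavoprotein, was saturated on all 8 arrays.

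Complex III passes electrons from ubiquinol to cytochrome c and had 2 never-saturated genes, which pointed in opposite directions. Cyc1, cytochrome c1, read 3.51, 3.44, 3.42 and 3.42 on occlusion arrays and 3.42, 3.28, 3.15 and 3.38 on control arrays. Its groups came close to separating, and the difference was 0.14 (SE 0.100, adjusted p 0.617 in limma), 0.066 on slide 1 and 0.21 on slide 2. Uqcrc1, a core protein of the matrix side, read between 1.51 and 1.64 on occlusion arrays, inside the range of 1.27 to 1.83 on control arrays, and differed by -0.039 (SE 0.14). On slide 1 alone it differed by -0.23 and on slide 2 alone by 0.16. Cycs, the mobile carrier between complexes III and IV, differed by -0.072 (SE 0.12) with control 3 missing. Its other probes gave -0.022 (SE 0.13) and -0.11 (SE 0.14), and that last one was saturated on 1 array.

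Complex IV, cytochrome c oxidase, is the complex with tissue isoforms, and 7 of its genes were never saturated. Of these 5 were higher and 2 lower, with a median difference of 0.056 that became -0.041 without control 3, and groups overlapped for each of the 7. The forms that most tissues express gave small differences where they could be read. Cox4i1, the common form of subunit 4, differed by 0.080 (SE 0.13, 3 occlusion arrays) and read between 4.23 and 4.25 on the occlusion side and 3.92 to 4.27 on the control side. Cox5b, a zinc-binding subunit, read 5.23, 4.94, 5.05 and 4.95 against 5.07, 5.06, 4.70 and 4.80 and differed by 0.14 (SE 0.13), with 0.17 (SE 0.14) on its second probe. Cox6a1, Cox7a2 and Cox8a, the common forms of 3 further subunits, were saturated on all 8 arrays.

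The isoforms known from muscle, lung or testis were well above background on every array. Among their probes, those of Cox6b2 and Cox8h were dim. Cox4i2, the form of subunit 4 best known from lung, read 0.11, -0.81, 0.17 and -0.50 on occlusion arrays and -0.11, -0.55, -0.60 and 0.0082 on control arrays. Its values divided by slide and not by treatment. All 4 arrays of slide 1 lay above all 4 of slide 2, and the difference between the groups was 0.056 (SE 0.26), 0.19 on slide 1 and -0.078 on slide 2. Cox6a2, the striated-muscle form of subunit 6a, read -0.30, -1.41, -0.50 and -1.46 on occlusion arrays and -0.51, -1.56, -1.61 and -1.52 on control arrays. Here 3 of the 4 arrays of slide 1 stood above the other 5 arrays, by 0.90 between the nearest pair. The group difference of 0.38 (SE 0.35, adjusted p 0.706 in limma) was 0.62 on slide 1 and 0.14 on slide 2, and it was 0.65 without control 1 and 0.18 without occlusion 1.

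Cox6b2, the testis form of subunit 6b, read between -3.47 and -2.43 on occlusion and between -3.24 and -2.57 on control arrays, with a difference of -0.13 (SE 0.24). Cox8h, listed by RefSeq as Cox8b, is a muscle form of subunit 8. It ran from -5.20 to -3.46 and from -4.70 to -3.26, with a difference of -0.038 (SE 0.44). Both of its further probes, on the opposite strand, were too dim to be compared.

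Complex V makes ATP in its F1 head as the rotor of its membrane part turns, and 3 of its genes were never saturated. Atp5d (now Atp5f1d), the delta subunit of the stalk that joins rotor and head, had the largest moderated statistic of all never-saturated members. It read 4.63, 4.49, 4.46 and 4.44 on occlusion arrays and 4.20, 4.27, 3.83 and 4.24 on control arrays. Every occlusion array was above every control array, and control 3 lay far below the rest. The difference was 0.37 (95% interval 0.079 to 0.66, unadjusted p 0.019, adjusted p 0.403 in limma), or 1.29-fold, with 0.32 on slide 1 and 0.42 on slide 2. Without control 3 it was 0.27. Its probe lies at chr7:11073061-11073120 on the minus strand of rn3.

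The other two were closer to 0. Atp5a1 (now Atp5f1a), the alpha subunit of the F1 head, read 4.95, 4.78, 4.69 and 4.74 against 4.80, 4.67, 4.62 and 4.83 and differed by 0.058 (SE 0.11). Some pixels of its spots were saturated on 4 arrays. The c subunit, which forms the rotor ring, is encoded by 3 genes. Atp5g3 read 2.26, 2.51, 2.06 and 2.20 against 2.16, 2.58, 2.36 and 1.93, with a difference of 0.0016 (SE 0.16). Atp5g2 was saturated on all 8 arrays at its brightest probe, and a second probe, never saturated, gave 0.13 (SE 0.13). Atp5g1 was saturated on 3 arrays.

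**Figure D4:**
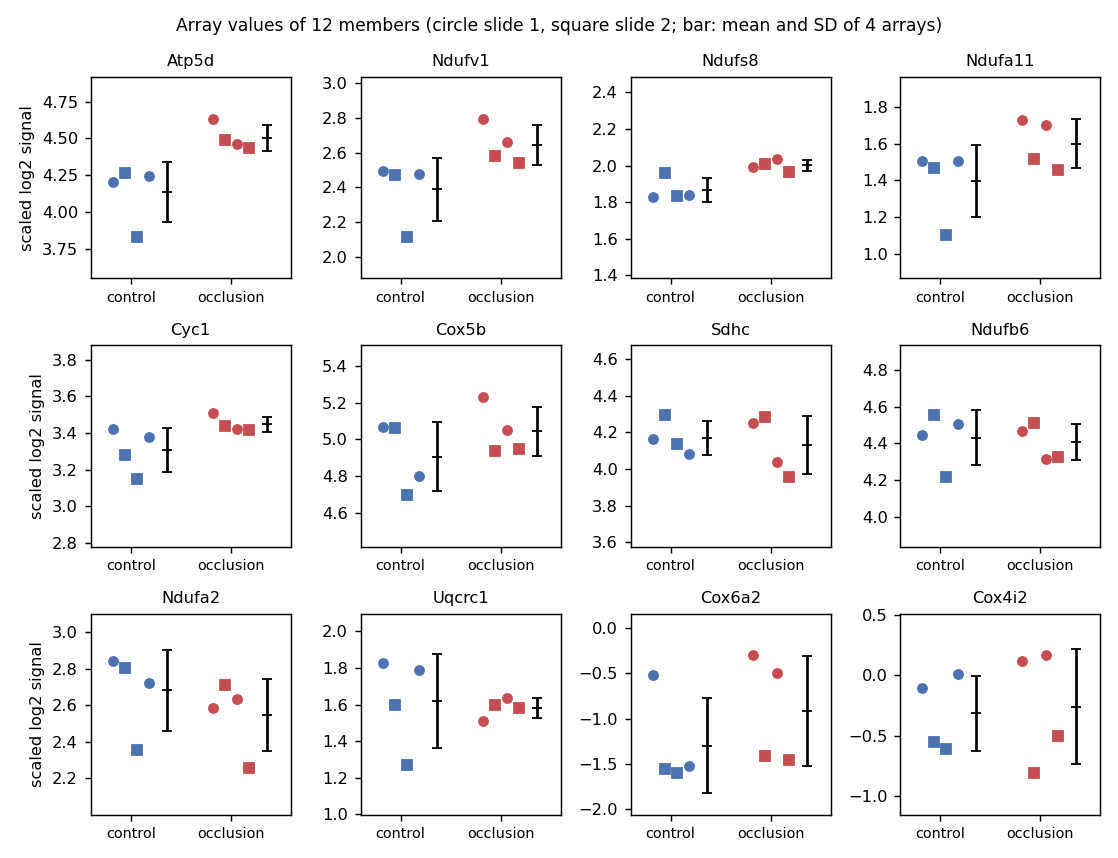
Scaled log2 signal of 12 never-saturated members on each array, with circles for slide 1 and squares for slide 2. Bars beside the points are the mean and SD of the 4 arrays, and the y axes differ between panels. Atp5d, Ndufv1 and Ndufs8 show no overlap between the groups, Cox4i2 divides by slide, and control 3 is the lowest point of Atp5d (3.83), Ndufv1 (2.12) and Ndufa11 (1.1).

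Atp5d, Ndufv1 and Ndufs8 were the never-saturated members whose groups did not overlap, 3 of 38 in the direction of higher on occlusion arrays and 0 in the other. Over all never-saturated probes 3.94% did not overlap in the higher and 2.87% in the lower direction, and among the brightest 10% 5.84% and 3.17%.

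Promoters of respiratory genes are known for sites of a few factors, among them nuclear respiratory factor 1 (NRF1), the ETS family that includes GABP, YY1 and the estrogen-related receptors (ERR). The stretches just upstream of the start site are shown for the 3 members above and for 1 member each with NRF1, ETS and ERR letters, as 150 bases from RefSeq on assembly GRCr8, 5′ to 3′ on the gene's own strand. Capitals mark a match. The searched letters were GCGCA, any base and GCGC for NRF1, CCGGAAGT for ETS, AAGATGGCG for YY1 and TCAAGGTCA for ERR on both strands, and TATAAA on the gene's strand, over 250 bases upstream. No other gene of the RefSeq table overlaps these stretches.
Atp5d, chr7:10214351-10214500, minus strand, no match in 250 bases: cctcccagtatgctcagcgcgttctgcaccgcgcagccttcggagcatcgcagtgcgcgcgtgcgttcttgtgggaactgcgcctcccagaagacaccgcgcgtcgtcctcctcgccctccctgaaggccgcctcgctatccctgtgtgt
Ndufv1, chr1:210734892-210735041, minus strand, no match in 250 bases: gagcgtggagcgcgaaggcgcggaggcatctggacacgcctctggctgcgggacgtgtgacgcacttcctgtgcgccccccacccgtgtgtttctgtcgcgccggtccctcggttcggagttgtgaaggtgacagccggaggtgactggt
Ndufs8, chr1:210573699-210573848, minus strand, no match in 250 bases: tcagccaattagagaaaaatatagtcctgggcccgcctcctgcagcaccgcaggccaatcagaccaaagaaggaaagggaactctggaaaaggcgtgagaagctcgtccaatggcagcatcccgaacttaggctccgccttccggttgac
Uqcrc1, chr8:118468073-118468222, plus strand, NRF1: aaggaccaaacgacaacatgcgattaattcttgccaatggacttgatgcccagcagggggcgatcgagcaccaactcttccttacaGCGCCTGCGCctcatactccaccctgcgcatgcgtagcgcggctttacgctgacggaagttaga
Cox5b, chr9:46417687-46417836, plus strand, ETS: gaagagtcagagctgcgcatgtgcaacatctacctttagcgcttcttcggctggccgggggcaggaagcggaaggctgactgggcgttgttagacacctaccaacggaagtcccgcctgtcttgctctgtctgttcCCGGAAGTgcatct
Atp5g3, chr3:79220665-79220814, minus strand, ERR: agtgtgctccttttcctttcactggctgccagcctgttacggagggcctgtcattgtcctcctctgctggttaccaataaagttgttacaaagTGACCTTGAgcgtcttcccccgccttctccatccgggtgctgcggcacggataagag

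The 3 members whose groups did not overlap held none of the 5 sets of letters within 250 bases. The same was true of most member promoters. Promoters were matched for 58 of the 67 compared subunit genes, cytochrome c included. NRF1 letters were found in 11 of the 58 (19.0%), against 3.75% of all 33469 promoters of the same length, and ETS letters in 6 (10.3%), against 3.10%. YY1 letters were in 1 promoter, ERR letters in 1 and TATA letters in 3 (5.17%), against 8.06% of all promoters for TATA. Over the 150 bases the median GC content was 59.7% in the members and 52.7% in all promoters, and its part in these shares was not tested. The NRF1 matches were spread over complexes I, II, III and V, among them Ndufa11 at 0.21, Ndufs6 at 0.11, Ndufv3l at 0.14 and Uqcrc1 at -0.039, and the other 7 belonged to saturated genes. A match is a description of letters, not a measured site.

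The factors behind these motifs were read as well. Nrf1 was -2.78, -2.83, -2.87 and -2.74 on occlusion arrays and -2.62, -2.43, -2.46 and -2.62 on control arrays. All occlusion arrays were below all control arrays, with a difference of -0.27 (SE 0.097, unadjusted p 0.022, adjusted p 0.403 in limma), -0.21 on slide 1 and -0.34 on slide 2. Gabpa differed by -0.055 (SE 0.21), Yy1 by 0.044 (SE 0.13), and no probe was matched to Esrra. Ppargc1a, the coactivator PGC-1α, differed by 0.074 (SE 0.20), and Tfam, which packages mitochondrial DNA and starts its transcription, by -0.11 (SE 0.10). Of 17 regulators of mitochondrial biogenesis 11 were higher and 6 lower (median 0.074), the highest by its moderated statistic being Ppargc1b at 0.37 (SE 0.18). None passed an adjusted p of 0.05.

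Among genes of neighbouring steps of energy metabolism none passed an adjusted p of 0.05 in limma. Among 25 never-saturated assembly factors of the complexes 17 were higher and 8 lower, with a median of 0.068, and Sdhaf1, which helps to assemble complex II, had the highest statistic (0.22, SE 0.098). Of 16 genes of the tricarboxylic acid cycle 10 were higher (median 0.039), and of 12 carriers and kinases that exchange ATP, phosphate and substrates 8 were higher (median 0.060). The mitochondrial glutamate carrier Slc25a22 stood out in that list at 0.61 (SE 0.15, adjusted p 0.403), with groups that did not overlap over 4 occlusion and 3 control arrays, control 4 having no value. In glycolysis 6 of 6 never-saturated genes were higher with a median of 0.17, led by Tpi1, triose phosphate isomerase, at 0.34 (SE 0.14), while 10 of the 16 compared glycolytic genes were saturated. The background share of higher probes is the 52.7% given above, which is for all 8 arrays. Control 3 had the lowest mean of the 8 arrays for each of these 4 lists and for the regulators of biogenesis. Without it 14 of 25 assembly factors, 8 of 16 genes of the tricarboxylic acid cycle, 5 of 12 carriers and kinases, 5 of 6 glycolytic genes and 12 of 17 regulators were higher. The medians were then 0.014, -0.010, -0.0029, 0.082 and 0.041 in the same order.

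The saturated members are given apart, before and after scaling. Of the 33 genes saturated on any array 32 read higher on occlusion arrays, and of the 23 saturated on all 8 arrays all 23 did. Over all probes saturated on at least 1 array 90.5% read higher, and over the 316 saturated on every array 314 did. Before scaling, the median signal of the 15 always-saturated members with a value on every array ran from 15.79 to 15.87 on the log2 scale, a range of 0.079 over the 8 arrays. The occlusion mean was 15.84 ± 0.033 (SD, n = 4) and the control mean 15.84 ± 0.029 (SD, n = 4), which differ by -0.0021. The 75th percentile of the arrays, which is subtracted, ran from 10.49 to 11.11, a range of 0.62, with an occlusion mean of 10.72 ± 0.27 and a control mean of 10.87 ± 0.062 (SD, n = 4 each). After scaling, the same 15 genes had medians of 5.21, 5.22, 5.30 and 4.72 on occlusion arrays and 4.94, 5.08, 4.93 and 4.91 on control arrays. The occlusion arrays thus held the 3 highest values and the lowest one, in the reverse order of their percentiles. These readings are lower bounds in both groups, so no fold is given for them.

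**Figure D5:**
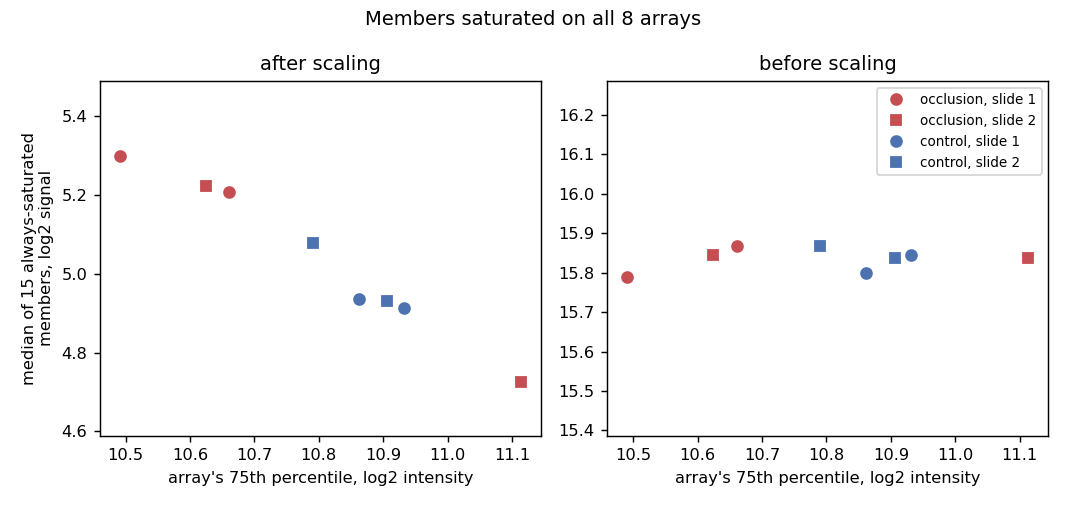
Median log2 signal of the 15 members saturated on all 8 arrays with complete values, after scaling (left) and before (right), against each array's 75th percentile on the log2 scale. Each point is 1 array, and both y axes span 0.9 log2 units. Before scaling the points lie between 15.79 and 15.87, and after scaling they descend from 5.30 to 4.72 as the percentile rises from 10.49 to 11.11.

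The slides gave opposite readings for these genes. Within slide 1, where the occlusion arrays had a mean 75th percentile of 1529 and the control arrays one of 1907, 32 of 33 saturated members read higher (median 0.28). Within slide 2, where it averaged 1897 and 1845, 10 of 32 did (median -0.023). With quantile normalisation, which ranks intensities within each array, 18 of 33 read higher, with a median of 0.0080. Scaling to the median of kept probes, or to the 75th percentile over never-saturated probes, left 32 of 33 higher. Cox7a2, the one saturated member with an unadjusted p under 0.05 (0.014, adjusted p 0.403 in limma), lacked a value on occlusion 4, the array with the highest percentile. Without that array 14 of the 33 had an unadjusted p under 0.05 in limma, all of them saturated on all 8 arrays. Over all 27152 probes 3686 then had such a p, against 3010 with every array in the fit. The 10 members saturated on 1 to 4 arrays had a median of 0.073, with 9 higher, and lay between the always-saturated genes (median 0.17) and the never-saturated ones. For Uqcrb, saturated at its brightest probe, 2 dimmer probes gave 0.090 (SE 0.17) and 0.087 (SE 0.20). Ndufc2, saturated on 4 arrays, had a dim second probe at -0.35 (SE 0.52). Atp5mg and Atp5mk, subunits of complex V that the scanner files list under older names, were saturated on 7 and 8 arrays.

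The 4 genes that share a prefix without being subunits had differences between -0.28 and 0.061. The lowest was Atp5s (SE 0.48), which read between -1.80 and 0.022 on occlusion and between -1.47 and 0.14 on control arrays. Its difference was 0.43 on slide 1 and -0.98 on slide 2. Cox7a2l differed by 0.017 (SE 0.16) on 3 occlusion and 2 control arrays. Without these 4 genes 25 of 34 never-saturated members were higher, with a median of 0.057.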

How the data were processed

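The 8 scanner files hold raw and processed spot intensity on a linear scale. Agilent Feature Extraction 9.5.1.1 wrote them for 1 channel, per the file headers, subtracting background from the processed intensity without scaling 1 array to another. A deposited table with all 8 arrays repeats that processed intensity in fewer digits and was an alternative. From these, the log2 of the 75th percentile over all non-control spots was subtracted on each array, outlier spots were left out, spots of a probe were averaged, and saturated spots kept their value. A probe was compared where 4 or more of the 8 arrays had it well above background and each group had 2 or more values. Group and replicate number came from the sample labels.

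The test was limma 3.58.1 in R 4.3.3, two-sided, by lmFit and eBayes, with Benjamini-Hochberg adjustment over 27152 probes, and the fit was tested on simulated data. The members and gene lists were chosen with earlier results of these data known, so their counts and medians are descriptions. Members with values were, per complex, the 2 highest and 2 lowest moderated statistics among never-saturated genes, every never-saturated gene whose groups do not overlap, the tissue isoforms, Cyc1, Cycs, Sdha to Sdhd and 5 regulators, and of other lists the extremes. The other members named were chosen after their values were seen. Exon and untranslated region under a probe are not stated, as no rn3 annotation was used. Symbols came from RefSeq (GRCr8, names only). Alternatives were other scalings, normexp (offset 50), other filters, slide and replicate blocks, single slides, a trended robust variance, other choices of probe, and each array left out. A percentile without outlier spots, the members without saturated pixels or without non-subunits, and the other gene lists without control 3 were added after seeing the data.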

Additional observations from a re-analysis of the deposited data

Results flagged for a closer look

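In groups of 4 arrays, a value was singled out when its gap to the nearest of the others divided by the group's range was over Dixon's 95% critical value for 4 samples, which chance passes in about 1 of 20 groups. Of 51 groups examined 7 passed it. On control 3, Atp5d read 3.83, Ndufv1 2.12, Ndufa11 1.1 and the median of the never-saturated members -0.26, each the lowest of the 4 control arrays by that gap. Ndufs8 read 1.96 on control 2, the highest of its group. Cox6a2 read -0.51 on control 1, the highest of its group. The median of the always-saturated members, each centred on its mean over the 8 arrays, was -0.32 on occlusion 4. This was the lowest of its group, on the array with the highest 75th percentile (2216).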

How the results depend on the processing

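No member passed an adjusted p of 0.05 under any alternative, and of all probes 1 did with normexp background correction. The count of never-saturated members higher on occlusion arrays stayed between 23 and 30 under the alternatives that kept all 8 arrays or took 1 slide. The number of members differed between these, and 23 of 32 were higher where probes had to be well above background on all 8 arrays. With 1 array left out the count lay between 17 and 32 of 38. The median difference ran from -0.019 to 0.11 with 1 array left out. The median of complex III was -0.084 on slide 1 alone and 0.19 on slide 2 alone, and that of complex V 0.19 without members with saturated pixels. Leaving out 1 array gave medians of -0.019 to 0.12 for complex I, -0.090 to 0.020 for complex II, -0.034 to 0.10 for complex III, -0.041 to 0.17 for complex IV and 0.0047 to 0.11 for complex V. The cause was not tested.

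Signs turned for several of the members chosen by the rule above, the largest of whose differences was that of Cox6b2 (-0.13). Outside that rule the sign of Atp5s (-0.28) turned between the slides. Atp5g3 became -0.0060 with quantile normalisation, -0.0027 with normexp, -0.00017 with the deposited table and -0.11 on slide 2. Cox7a2l became -0.059 with quantile normalisation and -0.027 with normexp. Ndufb6 became 0.00050 with scaling to the median and 0.033 on slide 2, and Uqcrc1 0.0067 with normexp and 0.16 on slide 2. On slide 2 Cox4i2 was -0.078, and on slide 1 Cycs was 0.0065, Sdhc 0.020 and Sdhd 0.0094. With 1 array left out the ranges that crossed 0 were -0.11 to 0.11 for Atp5g3, -0.00024 to 0.12 for Cox4i1, -0.086 to 0.24 for Cox4i2, -0.34 to 0.0062 for Cox6b2, -0.051 to 0.093 for Cox7a2l, -0.31 to 0.28 for Cox8h, -0.097 to 0.017 for Ndufb6, -0.090 to 0.020 for Sdhc and -0.16 to 0.031 for Uqcrc1.

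Same-numbered arrays of the 2 groups deviated together with correlations of 0.35, 0.51, -0.072 and -0.29, so the numbers were not taken as pairs. With the replicate number as a block 0 probes passed the adjusted threshold, 2833 had an unadjusted p under 0.05, 27 of 38 never-saturated members were higher and their median difference was 0.057.

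Saturation touches 33 of the 71 members, 23 of which have only a lower bound on every array, and 4 arrays in each group limit the precision of the rest.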
